A study of Mus musculus with 250 samples.

Results

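The mouse clock is a feedback loop of transcription factors, and the mRNA of 10 of its genes was followed in single brain astrocytes. The genes were chosen by name: the PAR bZIP factor genes Dbp, Tef and Hlf, the period genes Per1, Per2 and Per3, the REV-ERB receptor genes Nr1d1 and Nr1d2, and the activator genes Arntl and Clock. All 10 have a row among the 24490 gene rows of the deposited count table, and the list was drawn up with their levels on the plates of these cells already known. The cells came from the brains of adult C57BL/6 mice about 3 months old that carried SM22-Cre and Rosa26-stop-tdTomato, in which Cre from a smooth muscle promoter switches on a red fluorescent protein. All cells share this genotype, there is no control group, and neither the animal nor the time of day of collection is given in the sources used here.

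Each of the 250 cells was sorted into a well and its polyadenylated RNA was read over its full length by Smart-seq2, a method without molecular identifiers. The column names place 162 cells on plate 2 (prefix Brain.VSMC2) and 88 on plate 3 (prefix Brain.VSMC3), and the plates are treated as technical batches. Cells of unnamed animals are not replicates, so each value describes these cells and no test was made. The cells held 102161 to 564958 reads, with a median of 256247 on plate 2 and 391072 on plate 3. At least 3 of the 10 astrocyte markers checked were detected in all 162 and all 88 cells. Their summed level had a mean over cells of 30887 CPM (counts scaled to 1e+06 reads per cell) on plate 2 and 29905 CPM on plate 3. Mean sums for oligodendrocyte markers were 1011 and 733 CPM, and for their precursors 307 and 313 CPM. For neurons they were 93.9 and 132 CPM, and for fibroblasts 79.0 and 60.9 CPM. Those of microglia, endothelial and mural cells had means under 20 CPM on both plates. The highest single cells had 1079 CPM for microglia (plate 3), 337 CPM for endothelial (plate 2) and 420 CPM for mural markers (plate 3). At least 3 markers of 1 other cell type were found in 29 cells of plate 2 and 7 of plate 3, and results were repeated without these 36 cells.

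In this loop the proteins of Arntl (BMAL1) and Clock bind E-box DNA as a pair and switch on the period and cryptochrome genes, whose proteins then block the pair. The same pair drives Nr1d1 and Nr1d2, repressors that act on Arntl through ROR elements, and Dbp, Tef and Hlf, activators that bind D-box DNA and carry the rhythm to output genes. In most mouse tissues Arntl mRNA peaks at about the opposite time of day from Dbp, the period genes and Nr1d1. Astrocytes have a clock of their own, and that of the suprachiasmatic nucleus takes part in setting daily behaviour.

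The sequences before the start sites of 4 output genes and of Arntl are shown because they hold, or in the case of Arntl do not hold, the short motifs through which these proteins act. They come from RefSeq (GRCm38.p6), which gave start sites for 9 of the 10 genes, and each is the stretch of 250 bases before the start on the strand of the gene. Capitals mark an E-box (CACGTG), its variant CACGTT (read as AACGTG on the other strand) or a D-box (TTATGTAA or TTATGCAA). ROR elements (TAGGTCA or TGGGTCA) and cAMP response elements (TGACGTCA) were searched as well, all on both strands, and none of these motifs overlapped another in these windows.
Per3, chr4:151044666-151044915, minus strand: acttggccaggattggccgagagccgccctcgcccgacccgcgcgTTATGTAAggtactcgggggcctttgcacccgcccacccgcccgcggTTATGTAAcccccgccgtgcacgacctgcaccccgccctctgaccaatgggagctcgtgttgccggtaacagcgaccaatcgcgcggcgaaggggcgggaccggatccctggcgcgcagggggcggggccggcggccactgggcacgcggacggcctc
Per1, chr11:69098699-69098948, plus strand: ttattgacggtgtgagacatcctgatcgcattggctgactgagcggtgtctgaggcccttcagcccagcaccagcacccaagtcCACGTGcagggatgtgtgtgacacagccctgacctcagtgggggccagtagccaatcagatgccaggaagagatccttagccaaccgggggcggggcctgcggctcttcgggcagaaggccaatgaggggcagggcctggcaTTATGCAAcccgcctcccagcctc
Tef, second start, chr15:81811164-81811413, plus strand: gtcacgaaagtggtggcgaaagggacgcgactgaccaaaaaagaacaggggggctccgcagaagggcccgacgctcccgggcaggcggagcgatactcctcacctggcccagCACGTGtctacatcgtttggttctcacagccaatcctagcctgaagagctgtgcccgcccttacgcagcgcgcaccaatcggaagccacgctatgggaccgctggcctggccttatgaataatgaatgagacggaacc
Nr1d1, chr11:98775378-98775627, minus strand: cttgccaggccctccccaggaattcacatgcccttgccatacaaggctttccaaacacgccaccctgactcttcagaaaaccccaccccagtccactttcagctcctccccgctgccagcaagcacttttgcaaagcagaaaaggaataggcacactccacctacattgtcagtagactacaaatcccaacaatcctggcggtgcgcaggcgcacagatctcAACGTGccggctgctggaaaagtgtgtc
Arntl, chr7:113207215-113207464, plus strand: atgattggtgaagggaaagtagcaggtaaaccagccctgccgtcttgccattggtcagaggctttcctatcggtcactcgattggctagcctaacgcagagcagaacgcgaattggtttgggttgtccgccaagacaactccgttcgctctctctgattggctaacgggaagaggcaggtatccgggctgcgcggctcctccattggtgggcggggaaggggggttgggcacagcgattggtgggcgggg

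Per3 had 2 D-boxes, at 205 to 198 and 158 to 151 bases before its start. Per1 had an E-box at 166 to 161 bases and a D-box at 24 to 17 bases before the start shown, and none of the motifs before its other start. Tef had an E-box before each of its starts, at 138 to 133 bases in the sequence shown. The window before its other start is not printed, and all 250 of its bases lie in annotated exons. The variant E-box of Nr1d1 lay 28 to 23 bases before its start. Hlf had a cAMP response element at 9 to 2 bases before its start. No match was found before the starts of Dbp, Nr1d2, Arntl and Clock, which says only that these letters are not in these windows. Arntl has another start, whose window is not printed and held none of the motifs, and bases outside the windows were not searched. The window of Dbp is not printed because 159 of its bases lie in an annotated exon. Over all 32851 promoter windows of this length, 6.02% held an E-box, 3.85% its variant, 1.5% a D-box, 5.38% a ROR element and 1.55% a cAMP response element. A match is a description of the letters and not a bound site.

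Each of the 8 output genes was found in more cells than the activators Arntl and Clock. Per3, Nr1d1, Dbp and Tef were detected (at 10 CPM or more) in over 50% of the cells, while Arntl was detected in 36 cells (14.4%, exact binomial 95% interval 10.3 to 19.4%) and Clock in 39 (15.6%, 11.3 to 20.7%). In all, 4 of the 10 genes were detected in at least 50% of cells, beside 5.92% of the 16367 genes with reads. The threshold of 10 CPM is 2.56 reads in the median cell of plate 2 and 3.91 reads in that of plate 3. Intervals of shares treat the cells as independent draws and leave out any difference between animals. A cell without reads may lack the mRNA or may have lost it in preparation. As a measure of background, 12 genes of other tissues were detected in a median of 0% of the cells and in 2.0% at most, for Pvalb, which interneurons also express.

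**Figure D1:**
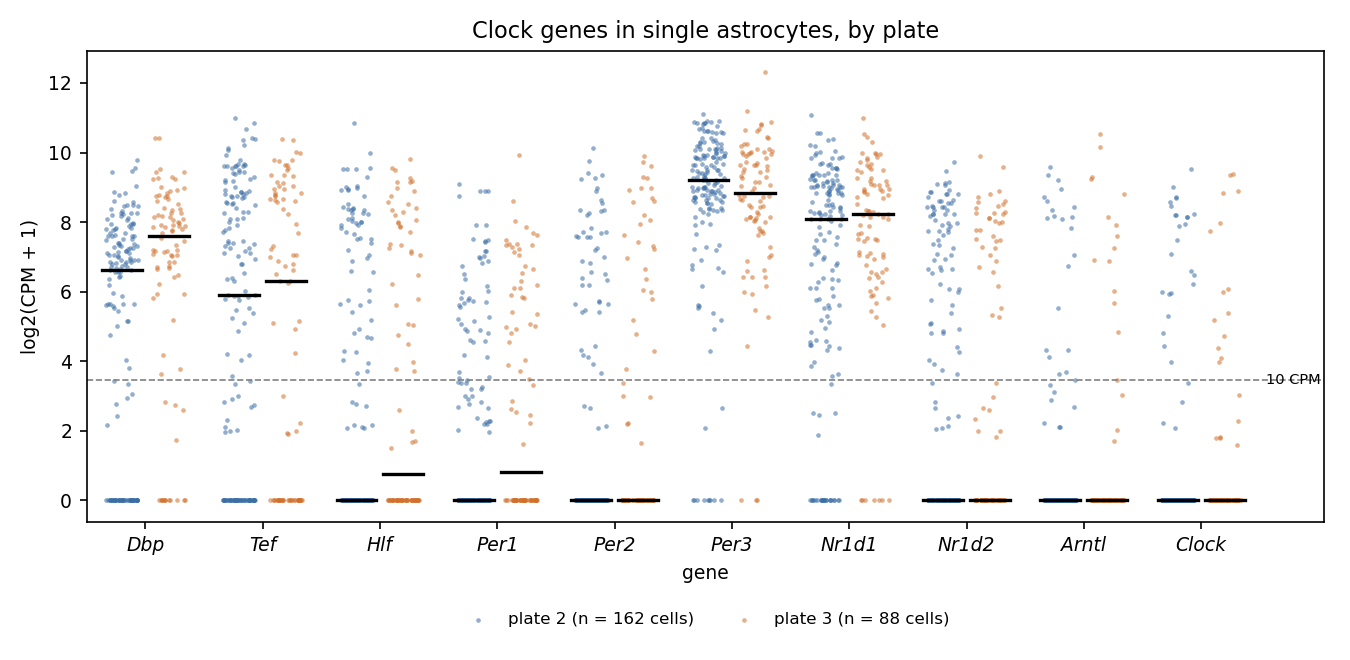
Level of each gene in each cell as log2(CPM + 1), with plate 2 (162 cells) in blue, plate 3 (88 cells) in orange, the median as a bar and the detection threshold of 10 CPM as a dashed line. Per3 and Nr1d1 form a band well above the threshold with few cells at 0, while most cells have no read of Arntl or Clock.

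Per3, the period gene whose loss disturbs the mouse clock least, had the highest CPM of the 10. Its mean was 689 ± 588 CPM (SD between cells, n = 250), and it was detected in 236 cells (94.4%, 90.8 to 96.9%). The lowest, median and highest cells of plate 2 had 0, 591 and 2212 CPM, and those of plate 3 had 0, 458 and 5077 CPM. The plates overlapped over nearly the whole range, and 1 cell of plate 3 stood far above the rest. Per3 lies on chromosome 4 at 151003652 to 151044665 (GRCm38, minus strand).

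Per1 and Per2 were detected in 34.0% and 30.0% of cells, at levels far below that of Per3. Per1, the period gene that is also induced at once by cAMP and glucocorticoid signals, had a mean of 42.6 ± 105 CPM and was detected in 85 cells (34.0%, 28.1 to 40.2%). Its median and highest cells were at 0 and 544 CPM on plate 2 and at 1.0 and 981 CPM on plate 3. In the cells that had it, Per1 was low as well, with a median of 68.4 CPM among detected cells, the lowest of the 10 genes over both plates together; on plate 3 alone Clock was lower (64.4 against 78.8 CPM). Per2, a core repressor of the loop, had a mean of 78.6 ± 184 CPM and was detected in 75 cells (30.0%, 24.4 to 36.1%), with a median of 188 CPM among them. Its median was 0 on both plates and its highest cell was at 1112 CPM on plate 2, against 963 CPM on plate 3. Per1 lies on chromosome 11 at 69095217 to 69109960 (plus strand) and Per2 on chromosome 1 at 91415982 to 91459324 (minus strand).

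Nr1d1, which codes for the receptor REV-ERBα, ranked next by CPM. It had a mean of 369 ± 380 CPM and was detected in 215 cells (86.0%, 81.1 to 90.1%). The lowest, median and highest cells had 0, 273 and 2171 CPM on plate 2 and 0, 298 and 2033 CPM on plate 3, so that the plates overlapped throughout. Its relative Nr1d2, for REV-ERBβ, was found in fewer cells: 107 (42.8%, 36.6 to 49.2%), with a mean of 108 ± 174 CPM. Its median was 0 on both plates, its highest cells had 845 and 951 CPM, and detected cells had a median of 237 CPM. Nr1d1 lies on chromosome 11 at 98767932 to 98775333 and Nr1d2 on chromosome 14 at 18204054 to 18239127, both on the minus strand. Exons of Nr1d1 and of Thra, a thyroid hormone receptor gene on the other strand, share 263 bases, 8.55% of the exon bases of Nr1d1. The strand setting of the count is not given, so reads from the shared bases cannot be assigned to 1 of these genes here; Thra had a mean of 42.7 CPM.

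The PAR bZIP genes differed in how many cells had them. Dbp was detected in 177 cells (70.8%, 64.7 to 76.4%) with a mean of 169 ± 206 CPM, Tef in 147 cells (58.8%, 52.4 to 65.0%) with 258 ± 370 CPM, and Hlf in 101 cells (40.4%, 34.3 to 46.8%) with 115 ± 224 CPM. Tef thus had a higher mean CPM than Dbp in fewer cells. Where detected, Tef had a median of 374 CPM (lower and upper quartiles 125 and 655 CPM), against 182 CPM (110 and 303 CPM) for Dbp. The median and highest cells of Tef had 58.5 and 2024 CPM on plate 2 and 77.9 and 1350 CPM on plate 3. For Hlf they had 0 and 1834 CPM on plate 2 and 0.9 and 904 CPM on plate 3. For both genes each plate had cells at 0, and the plates overlapped. Dbp lies on chromosome 7 at 45705088 to 45710203 (plus strand), Tef on chromosome 15 at 81802421 to 81826863 (plus strand) and Hlf on chromosome 11 at 90336536 to 90390895 (minus strand).

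The activators were detected in few cells, and for both the median there was lower on plate 3 than on plate 2. Arntl had a mean of 45.2 ± 164 CPM over all cells. In the 36 cells that had it the median was 257 CPM, with lower and upper quartiles of 60.7 and 429 CPM. This median was 276 CPM in the 21 cells of plate 2 and 194 CPM in the 15 cells of plate 3. Clock had 34.6 ± 113 CPM, and a median of 177 CPM in its 39 cells, which was 238 CPM in the 25 cells of plate 2 and 64.4 CPM in the 14 cells of plate 3. The highest cells had 769 CPM (plate 2) and 1468 CPM (plate 3) for Arntl, and 734 CPM and 669 CPM for Clock. For both genes the median cell of each plate had no read. Both activators were detected together in 6 cells, 3 on each plate, and at least 1 of them in 69 cells. Npas2, which can replace Clock as the partner, was detected in 42 cells (16.8%), and Arntl together with Clock or Npas2 in 9. Arntl lies on chromosome 7 at 113207465 to 113314126 (plus strand) and Clock on chromosome 5 at 76209868 to 76304792 (minus strand).

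Because Smart-seq2 reads whole transcripts, levels were compared between genes per length, as mean CPM per kb of merged exons (GENCODE M21). On this scale Nr1d1 was highest at 120 CPM per kb, followed by Per3 at 71.7, Dbp at 56.6, Tef at 32.8, Nr1d2 at 20.0, Hlf at 17.2, Per2 at 13.4, Per1 at 7.57, Arntl at 6.01 and Clock at 2.52 CPM per kb. None of the 9 steps between neighbours in this order exceeded the SD between cells of the difference within a cell. The step from Nr1d1 to Per3 was 48.4 CPM per kb with an SD of 139 CPM per kb, and Nr1d1 was the higher of the pair in 142 cells and the lower in 106. Per2 and Per1 were each the higher in 75 cells, and Arntl and Clock each in 43. Dbp changed its place between the plates, being below Per3 on plate 2 (42.8 against 73.1 CPM per kb) and above it on plate 3 (82.0 against 69.1 CPM per kb). With the length of the longest transcript in place of merged exons, Nr1d1, Per3 and Dbp kept the first 3 places among all 32 clock genes. Clock kept the lowest place of the 10, but Arntl then lay above Per1, at 11.3 against 9.13 CPM per kb.

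Of 22 further clock genes, the widely detected ones were the repressor genes Bhlhe41 (80.4% of cells, 321 ± 325 CPM) and Bhlhe40 (60.8%, 262 ± 342 CPM), the cryptochrome gene Cry2 (62.0%, 228 ± 331 CPM), the receptor genes Rorb (65.6%) and Rora (54.4%), which activate Arntl through ROR elements, and Usp2 (58.8%), a deubiquitinase gene driven by the clock. These were the 6 detected in at least 50% of cells. Cry1, the cryptochrome gene that peaks later in the day than the period genes, was detected in 29 cells (11.6%) and Ciart, a clock-driven repressor gene, in 37 (14.8%). Nfil3, a repressor that competes with the PAR bZIP proteins for D-boxes, reached 10 CPM in 0 of 250 cells (exact upper limit 1.46%), and 4 cells had a read below that level. Of the others given here, Wee1 was lowest at 1.2% and Fbxw11 highest at 30.8%, with Csnk1d, Csnk1e, Btrc, Npas2, Tipin, Nampt, Arntl2, Fbxl21 and Timeless between these values.

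**Figure D2:**
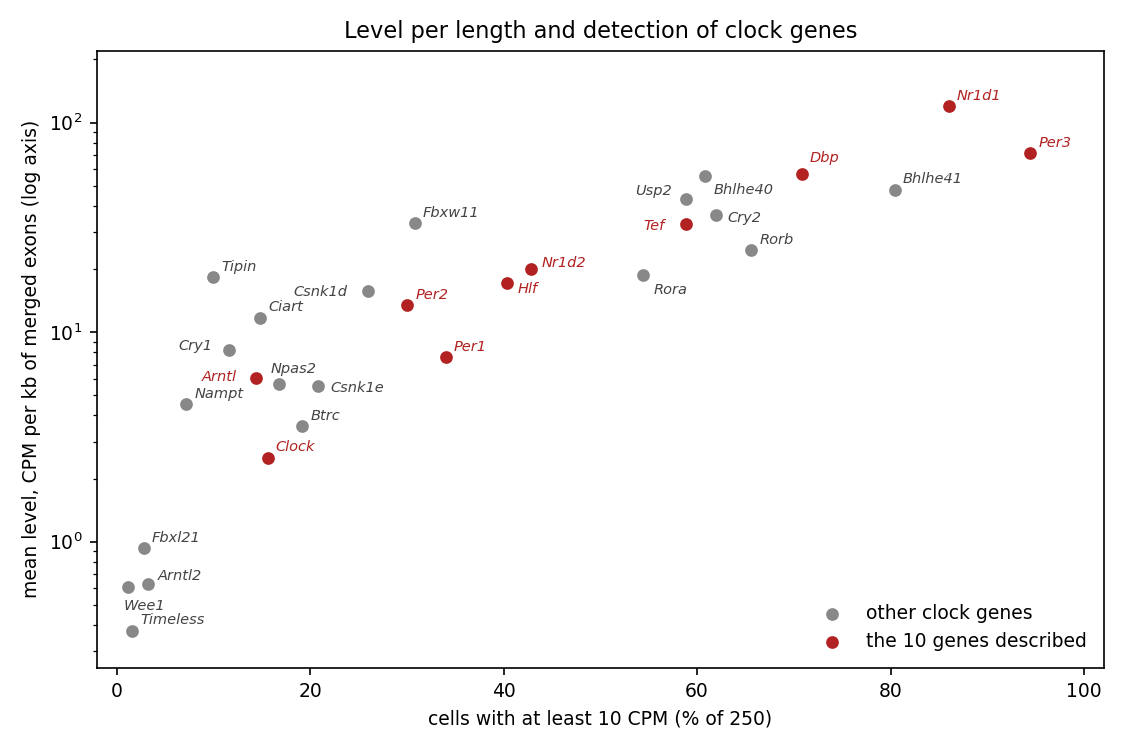
Mean level per kb of merged exons (log axis) against the share of the 250 cells with at least 10 CPM, for the 10 genes described (red) and other clock genes detected in at least 1 cell (grey). Nr1d1, Per3 and Dbp lie at the upper right, and Arntl and Clock at the lower left beside Npas2 and Cry1.

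The median cell had 5 of the 10 genes on either plate, the quartiles over all cells were 4 and 6, and single cells had 0 to 9; the mean was 4.70 ± 1.68 genes on plate 2 and 5.18 ± 1.53 on plate 3. With every cell thinned to 100000 reads and 1 read as the threshold, the means were 4.90 ± 1.66 and 5.35 ± 1.5. Only 1 cell had none of the genes, and none had all 10. In 180 cells at least 1 output gene was detected and neither activator. The number of genes per cell went with the number of all genes detected in the cell, at a rank correlation of 0.457 on plate 2 and 0.414 on plate 3, and less with its reads, at 0.0108 and 0.142.

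Between the plates, Dbp had the largest ratio of the 10 genes, with a higher median and upper quartile on plate 3 and cells without a read on both plates. The lowest, median and highest cells had 0, 97.6 and 888 CPM on plate 2 and 0, 194 and 1358 CPM on plate 3. The ranges overlapped, and the median of plate 3 lay at the upper quartile of plate 2, which was 193 CPM. The mean was 128 ± 157 CPM on plate 2 and 245 ± 258 CPM on plate 3, 1.92-fold higher (log2 ratio 0.94). Dbp was detected in 105 of 162 cells (64.8%, 56.9 to 72.1%) on plate 2 and in 72 of 88 cells (81.8%, 72.2 to 89.2%) on plate 3. With every cell thinned to 100000 reads, 67.3% (59.5 to 74.4%) and 84.1% (74.8 to 91.0%) of cells had a read. Detected cells alone had a median of 152 CPM on plate 2 and 238 CPM on plate 3. The sums were 5117 and 8046 reads, a log2 ratio per total read of 0.98 (exact binomial interval 0.93 to 1.03, for counting error only).

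No gene of the 10 differed 2-fold between the plates, where 18.6% of the 10414 genes with a mean of at least 5 CPM did, and 6.6% of the 5089 genes within the range of the means of the 10. By direction, 7.24% of the 10414 genes were higher on plate 3 and 11.4% lower. The list was named for this contrast, so the counts are descriptions. Of all 10414 genes, 20.7% lay at least as far from 1 as Dbp. Ratios spread more widely at low levels: of the 1403 genes with a mean of 100 to 300 CPM, a range set after the value of Dbp was known, 3.42% did. Arntl came next, with 35.5 ± 121 CPM on plate 2 and 63.1 ± 222 CPM on plate 3, 1.78-fold higher. Its detection was 13.0% (8.2 to 19.1%) and 17.0% (9.9 to 26.6%), and 1 cell of plate 3 held 26.4% of the level there. Without the highest cell of each plate the log2 ratio of Arntl fell from 0.83 to 0.60. In the cells with Arntl detected, its median was lower on plate 3, at 194 CPM against 276 CPM on plate 2. Dbp and Arntl both had the higher mean on plate 3, and the cause was not tested. Without the 36 cells that had 3 markers of another type, Dbp reached a log2 ratio of 1.03 and Arntl 1.01, so that 2 genes passed 2-fold. The share of all genes at 2-fold without these cells is not given here, so this count has no background beside it.

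The other 8 genes differed less. Per1 was at 36.4 ± 92.3 CPM on plate 2 and at 54.2 ± 124 CPM on plate 3 (1.49-fold), with detection of 29.6% (22.7 to 37.3%) and 42.0% (31.6 to 53.0%). Per2 had 68.1 ± 169 and 97.9 ± 209 CPM (1.44-fold), Nr1d1 351 ± 376 and 403 ± 388 CPM (1.15-fold), and Hlf 110 ± 232 and 124 ± 208 CPM (1.12-fold). The remaining means were closer to each other: Nr1d2 had 108 and 109 CPM, Tef 263 and 249 CPM, Per3 702 and 664 CPM, and Clock 34.7 and 34.4 CPM. Each of these differences is far smaller than the SD between cells, which describes the spread of cells and not the error of a mean. In all, 7 of the 10 genes had a higher mean on plate 3, beside 47.3% of the genes tested, and their median log2 ratio was 0.18, beside -0.04 for all genes. At 1.5-fold, 2 of the 10 genes were higher on plate 3 and 0 lower, where 16.6% and 21.3% of all genes were (38% in either direction). The share of cells with the gene detected was higher on plate 3 for 8 of the 10 genes, beside 53.3% of all genes, and for 7 after thinning, beside 53.6%.

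**Figure D3:**
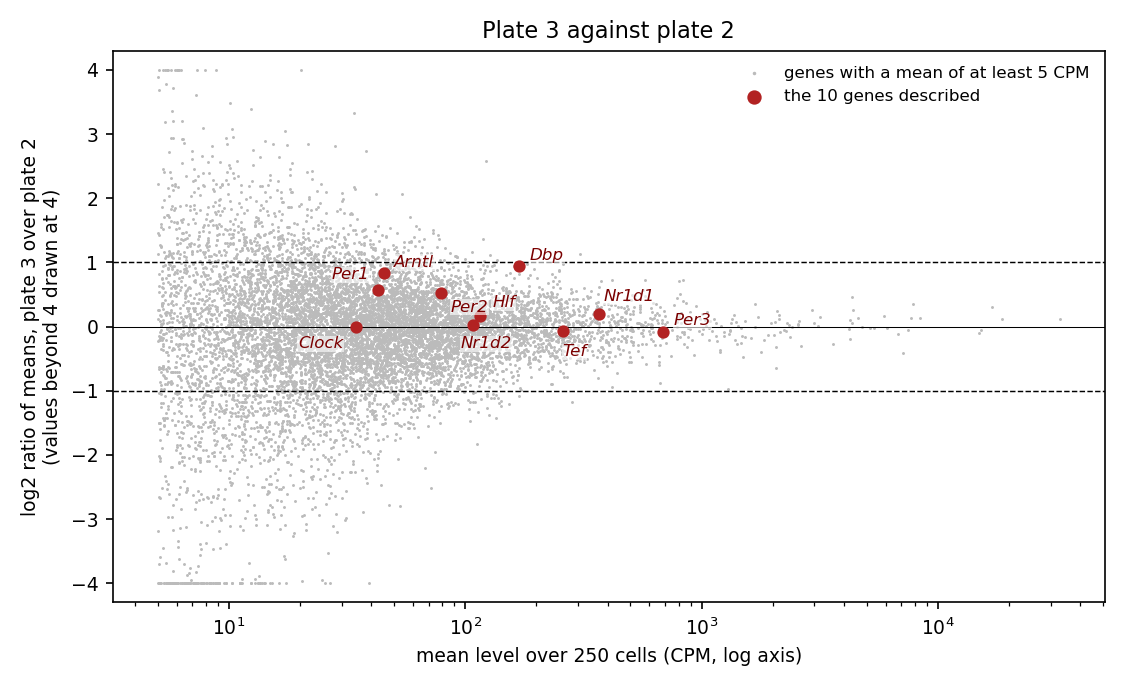
Log2 ratio of the mean CPM on plate 3 over plate 2 against the mean level over all cells (log axis) for genes with a mean of at least 5 CPM (grey) and the 10 genes described (red), with dashed lines at 2-fold. All 10 lie between the lines, and Dbp lies near the upper edge of genes of its level.

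Dbp shares 539 bases of exon, 18.0% of its exon bases, with Sphk2, a sphingosine kinase gene on the other strand. Sphk2 was higher on plate 3 too, with 17.4 CPM on plate 2 and 40.9 CPM on plate 3, 2.35-fold. Its rank correlation with Dbp over cells was 0.193 on plate 2 and 0.210 on plate 3. In the cells without any Sphk2 read, a split added after looking at the data, Dbp had a mean of 105 CPM on plate 2 (114 cells) and 174 CPM on plate 3 (43 cells), 1.65-fold higher. How much of the count of either gene comes from the shared bases was not tested.

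Among the further clock genes that passed 5 CPM, Btrc, which codes for a ubiquitin ligase subunit that marks period proteins for breakdown, was more than 2-fold lower on plate 3, at 76.5 CPM on plate 2 and 30.6 CPM on plate 3. Rora had 203 and 323 CPM, Npas2 32.8 and 17.0 CPM, and Cry2 252 and 184 CPM. Cry1 had 31.2 and 20.9 CPM, Bhlhe40 257 and 273 CPM (1.06-fold), and Bhlhe41 303 and 355 CPM (1.17-fold).

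Over the cells of a plate the 10 genes had low rank correlations with each other. The mean rank correlation (Spearman rho of CPM) over their 45 pairs was 0.0441 over the 162 cells of plate 2 and 0.0665 over the 88 of plate 3. Over all pairs of the 5642 genes detected at least as often as the rarest of the 10, it was 0.00684 and 0.00988. These genes were in at least 13.0% of the cells of each plate and were not matched to the 10 in detection. A rho of at least 0.1 on both plates was found for 6 of the 45 pairs, beside 2.5% of all pairs of genes, and a rho of at most -0.1 on both for 0 pairs, beside 1.39%. Pairs share the cell, its depth and its number of detected genes, the counts are sparse, and a low rho is no finding by itself. Given the reads and the genes detected of each cell, the mean rho over both plates went from 0.0553 to 0.0363. No such value is given here for all pairs of genes.

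Per2 and Per3 had the highest rho when averaged over the plates, at 0.143 on plate 2 and 0.318 on plate 3. Dbp and Nr1d1, both direct targets of the activator pair, followed at 0.164 and 0.267. Dbp was detected in 161 of the 215 cells with Nr1d1 (74.9%, 68.5 to 80.5%) and in 16 of the 35 cells without it (45.7%, 28.8 to 63.4%). On plate 2 these shares were 68.7% and 46.4%, and on plate 3 they were 85.2% and 42.9%, the last of only 7 cells. The other pairs at or above 0.1 on both plates were Nr1d2 with Clock (0.111 and 0.226), Per1 with Per2 (0.161 and 0.116), Tef with Per1 (0.112 and 0.145) and Per1 with Arntl (0.121 and 0.125). After thinning to 100000 reads, 3 of the 6 pairs were still at or above 0.1 on both plates: Per2 with Per3, Dbp with Nr1d1 and Nr1d2 with Clock.

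Some pairs differed between the plates. Hlf and Per3 had a rho of -0.0339 on plate 2 and 0.366 on plate 3, the highest value of any pair on 1 plate. Per3 with Nr1d2 had 0.0334 and 0.300, Per3 with Clock -0.139 and 0.247, and Tef with Arntl 0.219 and -0.00517. The PAR bZIP genes had a mean rho of only 0.0680 and 0.0179 among themselves, and the period genes 0.106 and 0.150. The difference between the plates was not tested, since cells are not replicates.

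**Figure D4:**
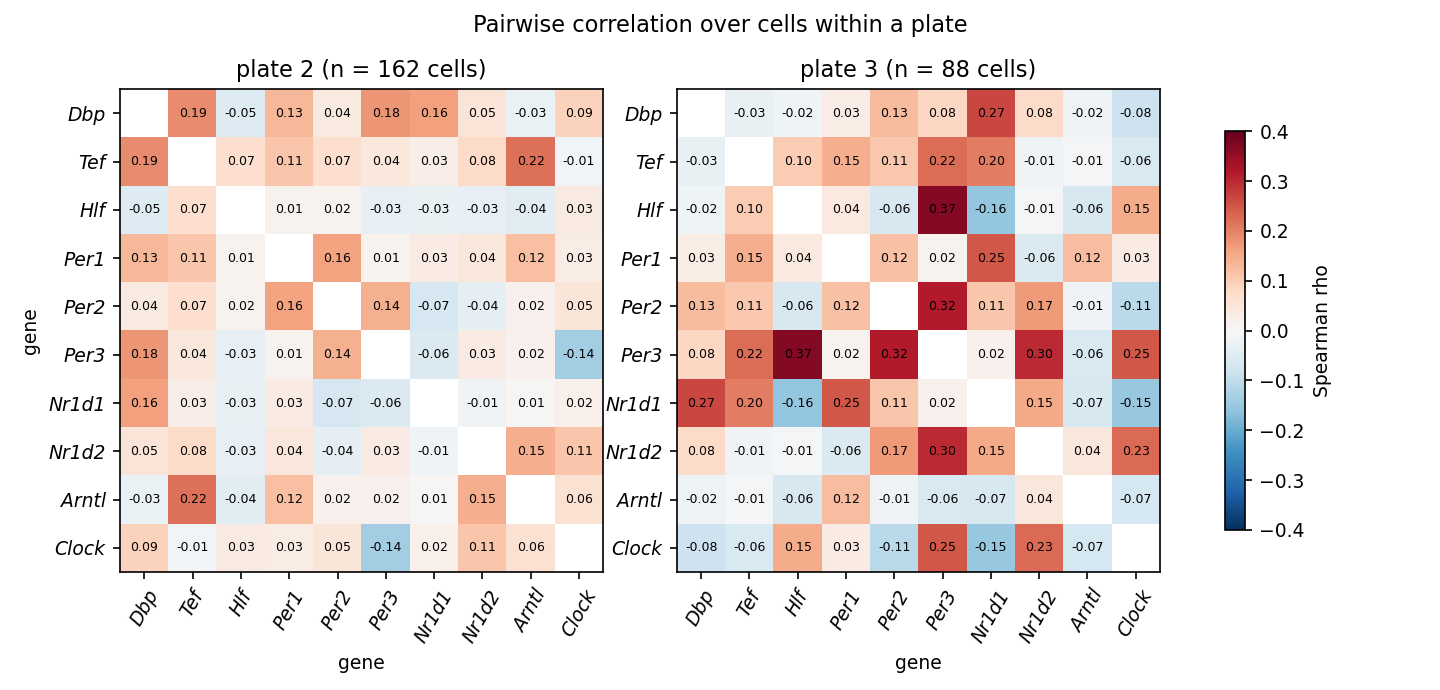
Spearman rho for each pair of the 10 genes over the cells of plate 2 (left, 162 cells) and plate 3 (right, 88 cells), with the value in each square and red for positive and blue for negative values. Dbp with Nr1d1 and Per2 with Per3 are red on both plates, while Hlf with Per3 is red only on plate 3.

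Between the output genes and the activators, pairs went both ways and their means were low, with 2 of the 16 pairs (Nr1d2 with Clock and Per1 with Arntl) at or above 0.1 on both plates. The mean rho of the 8 output genes with Arntl was 0.0574 on plate 2 and -0.00708 on plate 3, and with Arntl and Clock together 0.0404 and 0.0120. Given the reads and the genes detected of each cell, the mean over both plates with Arntl and Clock went from 0.0262 to 0.00380. Dbp and Arntl had -0.0259 and -0.0204. Dbp was detected in 26 of the 36 cells with Arntl (72.2%, 54.8 to 85.8%) and in 151 of the 214 cells without it (70.6%, 64.0 to 76.6%). The mean level of Dbp was 122 ± 151 CPM in the cells with Arntl and 177 ± 213 CPM in those without. On plate 2 these means were 66.4 ± 81.5 and 137 ± 164 CPM, and on plate 3 they were 199 ± 190 and 255 ± 270 CPM. Each difference was smaller than the SD between cells, which is not the error of a mean. Per3 was detected in all 36 cells with Arntl and in 93.5% of those without, and Tef in 77.8% (60.8 to 89.9%) and 55.6% (48.7 to 62.4%). On plate 2 the shares of Tef were 85.7% and 56.0%, with means of 475 and 231 CPM. On plate 3 they were 66.7% of only 15 cells and 54.8%, with means of 220 and 255 CPM.

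The genes most like each member in pattern over cells had rank correlations of the same low size. For Dbp the closest of the 3702 genes compared was Pias3 (mean rho over the plates 0.249), for Tef Tomm7 (0.291), for Hlf Ndufc1 (0.221) and for Per1 Ank2 (0.334). For Per2 it was Vps13d (0.260), for Per3 Phf21b (0.231) with Per2 next (also 0.231), for Nr1d1 Snord4a (0.239) and for Nr1d2 Prrc2b (0.271). Per2 was the 1 clock gene that came among the closest 3 genes of another member. Arntl and Clock were in too few cells to be ranked.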

How the data were processed

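Single-cell RNA-seq of 250 brain astrocytes by Smart-seq2 was analysed, with each deposited sample holding 1 cell. The authors deposited a table of raw read counts per gene, and the submitters' processing notes name STAR 2.4.2a and the genome build mm10. A second deposited table holds a score, each cell's counts scaled to a total of 500000, and it was used only as an alternative. The counting program and whether it used strand are not given in the sources used. Counts were divided by the total count of the cell (102161 to 564958 reads) to give CPM, and a gene was called detected at 10 CPM. Intervals are exact, at 95%. Those of shares (Clopper-Pearson) treat the cells as independent draws and leave out any difference between animals. Those of summed reads cover counting error only, since reads without molecular identifiers are not independent molecules.

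Cells were split by plate as the column names give it. No animal is named, so the cells form 1 group without replicates, no test was made and no p-value is given. Plates were compared by the ratio of mean CPM over the 10414 genes with a mean of at least 5 CPM. Rank correlations (Spearman) were computed within plates. The genes named as most alike were the 3 with the highest mean rho over the plates, for members detected in at least 25% and compared genes in at least 20% of the cells of each plate. Cells were thinned to 100000 reads by drawing without replacement. Scripts used Python 3.11.15, numpy 2.4.6, pandas 2.3.3 and scipy 1.17.1, and were tested on simulated data. The 10 genes and all gene lists were chosen with earlier results of these data known. Alternatives covered depth, totals, thresholds, single high cells and cells with markers of another type. Values of 2 of the further clock genes are not reported here.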

Additional observations from a re-analysis of the deposited data

How the results depend on the processing

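The number of the 10 genes that differed 2-fold between the plates was 0. It became 2 (Dbp and Arntl) without the cells with 3 markers of another type. The share of all genes without those cells is not given here, and the cause of this change was not tested. The number was also 2 when genes were called at 1.5-fold, beside 38% of all genes. The mean rank correlation of the 10 genes moved from 0.0553 to 0.0363, and that of the output genes with Arntl and Clock from 0.0262 to 0.00380, given the total count and the genes detected of each cell. The share of all genes at 2-fold moved from 18.6% to 10.2% with a minimum mean of 20 CPM and to 29.2% for any gene with a read on both plates. Of 72 alternative values of the log2 ratio of single genes, 23 moved by more than their counting error, and Clock (-0.16 to 0.15) and Nr1d2 (-0.05 to 0.15) changed sign without being called. The log2 ratio of Dbp was 0.72 in cells without a Sphk2 read. That of Nr1d1 was 0.05 in cells without a Thra read, against 0.20 in all cells. Both alternatives were chosen after seeing the data. The level of a gene depends on the summary used, since the median over cells was 0 for 6 of the 10 genes. Low depth limits the rare genes most, since 10 CPM is 2.56 reads in the median cell of plate 2. No paired analysis was possible because each cell is its own sample and no number pairs cells.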

Other observations

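Per1 is also an acute response gene, and 2 further lists give the levels of such genes in these cells. Of 13 immediate early genes, which neural cells switch on within minutes of a stimulus, Btg2 had the highest mean at 59.5 CPM, and Fos was detected in 24.0% of cells. Of 12 genes induced by glucocorticoids, Mt1, a metallothionein gene, had the highest mean at 1053 CPM. Of the 10 of these that passed 5 CPM, 3 differed 2-fold between the plates, beside 18.6% of all genes: Zbtb16 (17.7 CPM on plate 2 and 7.37 CPM on plate 3) and Cdkn1a (15.8 and 4.20 CPM) were lower on plate 3, and Errfi1 (20.2 and 42.4 CPM) was higher. The rank correlation of Per1 with the summed immediate early genes was -0.01 on plate 2 and 0.05 on plate 3, and with the summed glucocorticoid-induced genes 0.01 and -0.01. The second sum includes Mt1, whose mean was far above the levels of Zbtb16, Cdkn1a and Errfi1. These values do not show whether Per1 followed a glucocorticoid response.

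Of 3695 genes ranked by their mean rank correlation over the plates with the mean standardised level of the 8 output genes, Tlr3, a receptor gene for double-stranded RNA, came first at 0.283, followed by Phf21b (0.266) and Ank2 (0.250). Sparcl1, an astrocyte-secreted matrix protein gene, came last at -0.229, after Magt1 (-0.204) and Tssc4 (-0.202).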
